A study of Homo sapiens with 6 samples.

Results

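The protein-coding transcriptome of HCT116 stem cells (HCT116SCs) transfected with a negative control (NC) siRNA was described from 3 libraries, NC 1, NC 2 and NC 3, of the 6 libraries in the study. All 19951 rows of the deposited expression table with the biotype protein-coding were used, out of 58735 rows. HCT116 is an established human colorectal carcinoma line, and HCT116SCs are its sorted CD44+CD326+ fraction (CD326 is the protein encoded by EPCAM). The labels give all these cells the genotype WT. The cells were kept as tumor spheres without serum in DMEM/F12 with B27, epidermal growth factor (EGF, 20 ng/mL) and basic fibroblast growth factor (bFGF, also 20 ng/mL). Spheres were dispersed to single cells before a liposomal transfection, and RNA was taken 48 h later. The 3 libraries with siRNA against prostate stem cell antigen (PSCA) were not used, and no library of untransfected or unsorted cells was analysed here, so every level is that of sorted, cultured and transfected cells. The labels do not say whether the 3 libraries came from separate cultures, and each SD below therefore covers the spread among these libraries, which may be technical. With a single group there was nothing to compare, and no test was run.

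The colonic epithelium is renewed from stem cells at the crypt base, whose daughters become absorptive cells or secretory cells such as goblet and enteroendocrine cells. WNT ligands and growth factors acting through the EGF receptor family and the RAS and ERK kinases sustain dividing crypt cells, and regulators such as CDX1, CDX2 and HNF4A set the intestinal fate. CD44, a receptor for hyaluronan, and EPCAM, an adhesion protein of simple epithelia, are the surface proteins by which colorectal cancer stem cells are commonly sorted.

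The table gives FPKM, the fragments or reads on a gene scaled to its exon length and to the library total, so levels of different genes could be set side by side per length. The values held 16145977, 16884838 and 16682154 reads on genes in NC 1, NC 2 and NC 3, of which 96.8% lay on protein-coding genes in each library. For a 1 kilobase gene, 1 read was worth 0.0574 to 0.0595 FPKM. Genes whose mean across NC 1 to NC 3 reached 1 FPKM are called expressed below, and there were 11032 of them (55.3%). Counts of expressed genes in the lists below are to be read beside this share. A further 5351 genes had reads but a mean below 1, and 3568 genes (17.9%) had 0 reads in all 3 libraries. A count of 0 allows up to 3 reads over the 3 libraries together, which for these silent genes was a median of 0.0276 FPKM and at most 0.720 FPKM. Such limits cover counting error only. The median was 1.80 FPKM over all protein-coding genes and 7.33 FPKM over the expressed ones.

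The levels were concentrated in few genes. Mean FPKM reached 10 in 4259 genes, 100 in 222 and 1000 in 19. The 100 highest genes held 41.1% of the summed protein-coding FPKM, whereas the 6773 genes between 1 and 10 FPKM held 12.6%. Of the 100 highest genes, 28 encoded cytosolic ribosomal proteins, 13 were the genes of the mitochondrial genome, 7 were glycolytic enzymes and 6 were heat shock proteins. The 13 mitochondrial genes held 26.4% of the summed FPKM but only 5.57% to 7.10% of the protein-coding reads of a library, their transcripts being short. Without them the share of the 100 highest genes was 21.4%.

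**Figure D1:**
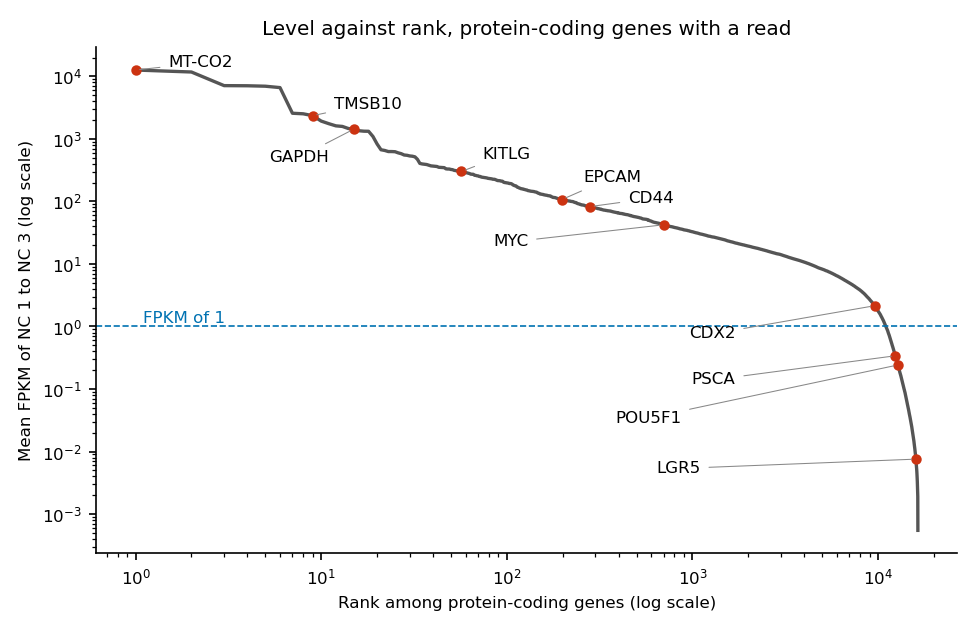
Mean FPKM of NC 1 to NC 3 (y axis, log scale) against rank (x axis, log scale) for the protein-coding genes with a read, with named genes as red points and a dashed line at 1 FPKM. EPCAM at rank 198 and CD44 at rank 281 lie on the upper part of the curve, and PSCA, POU5F1 and LGR5 lie below the line, where the curve drops steeply.

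The highest gene was MT-CO2, a subunit of cytochrome c oxidase, at 14252, 13625 and 9970 FPKM in NC 1, NC 2 and NC 3. NC 3 was the lowest of the 3 libraries, as it was for 12 of the 13 mitochondrial genes. MT-CO1, of the same complex, was the exception, with 11888, 11626 and 11666 FPKM. Next came MT-ATP6, MT-CO3, MT-ND4 and MT-ND4L between 6601 and 7100 FPKM, and MT-CYB, MT-ND2, MT-ND3, MT-ND5, MT-ND1, MT-ND6 and MT-ATP8 between 1093 and 2569 FPKM.

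The highest nuclear gene was TMSB10, which encodes an actin-sequestering thymosin, with 2097, 2379 and 2575 FPKM. EEF1A1, a translation elongation factor, reached 1581 ± 33.4 FPKM (SD, n = 3 here and below), and GAPDH, a glycolytic enzyme, 1431 ± 65.6. The ferritin light chain FTL had 1348 ± 140, the chaperone HSP90AB1 1326 ± 141, the cytoplasmic actin ACTG1 1321 ± 118 and the chaperone HSP90AA1 829 ± 114 FPKM. With the mitochondrial genes, these 7 nuclear genes filled the first 20 ranks. SCD, the desaturase that makes monounsaturated fatty acids, held rank 24 with 609, 614 and 657 FPKM, between chaperones and a translation factor. The stress-responsive metallothioneins MT2A (232 ± 14.8 FPKM) and MT1E (134 ± 23.9) and the calcium-binding proteins S100A6 (322, 351 and 372), S100A11 (230 ± 8.72) and S100A4 (225 ± 5.19) were also above 100 FPKM, while 7 of 11 metallothioneins and 7 of 22 S100 genes had no read.

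Both sorted antigens were among the 300 highest genes. EPCAM (chromosome 2, 47345158 to 47387601, plus strand, GRCh38) had 94.7, 104 and 123 FPKM, with a mean of 107 ± 14.4 and rank 198. CD44 (chromosome 11, 35138870 to 35232402, plus strand) had 81.1, 79.2 and 87.5 FPKM, with a mean of 82.6 ± 4.36 and rank 281. Within single libraries the rank of EPCAM lay between 170 and 232 and that of CD44 between 273 and 297. NC 3 was the highest library for both genes. In a bulk sample, fewer cells with a transcript and less of it per cell cannot be told apart, so these levels do not give the purity of the sort.

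Surface proteins used to sort cancer stem cells covered a wide range, and 13 of 16 listed ones, EPCAM and CD44 included, were expressed. The tetraspanin CD9 had 50.4 ± 0.537 FPKM, the ectonucleotidase NT5E 39.4 ± 4.92, the laminin receptor subunit ITGA6 33.4 ± 4.38 and the adhesion protein ALCAM 20.5 ± 2.03. CD24 had 15.5 ± 0.608 FPKM and PROM1, which encodes CD133, 4.79 FPKM. The efflux pumps ABCG2 and ABCB1 had 1.22 and 0.638 FPKM. THY1, a marker of mesenchymal cells, lay at 0.0228 FPKM.

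For the genes at the ends of this range, promoter windows were read from RefSeq (GRCh38.p14, 250 bases before to 50 bases after the transcript start, 5′ to 3′ on the gene's strand). They are shown for CD44, for the highest nuclear gene TMSB10, for the growth factor gene KITLG, and for FABP1 and NANOG with 0 reads, and capitals mark CpG dinucleotides.
CD44, chr11:35138921-35139220, plus strand: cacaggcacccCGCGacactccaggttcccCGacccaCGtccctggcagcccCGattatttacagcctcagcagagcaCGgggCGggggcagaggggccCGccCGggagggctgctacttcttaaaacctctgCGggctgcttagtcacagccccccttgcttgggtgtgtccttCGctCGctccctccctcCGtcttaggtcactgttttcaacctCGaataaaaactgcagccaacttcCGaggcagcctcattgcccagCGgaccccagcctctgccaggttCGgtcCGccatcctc
TMSB10, chr2:84905406-84905705, plus strand: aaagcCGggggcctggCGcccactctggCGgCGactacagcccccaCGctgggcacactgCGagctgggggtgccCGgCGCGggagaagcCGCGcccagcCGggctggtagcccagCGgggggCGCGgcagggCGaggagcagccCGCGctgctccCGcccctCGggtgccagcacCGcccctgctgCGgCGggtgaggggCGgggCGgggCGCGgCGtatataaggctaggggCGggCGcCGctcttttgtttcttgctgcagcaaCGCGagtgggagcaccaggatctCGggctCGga
KITLG, chr12:88580422-88580721, minus strand: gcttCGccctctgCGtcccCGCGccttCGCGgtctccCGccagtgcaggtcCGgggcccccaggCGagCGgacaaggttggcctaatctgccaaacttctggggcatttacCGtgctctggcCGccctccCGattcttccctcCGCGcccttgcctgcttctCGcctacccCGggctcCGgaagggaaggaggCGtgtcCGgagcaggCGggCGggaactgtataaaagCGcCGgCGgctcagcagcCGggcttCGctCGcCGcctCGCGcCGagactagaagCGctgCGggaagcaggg
FABP1, chr2:88128013-88128312, minus strand: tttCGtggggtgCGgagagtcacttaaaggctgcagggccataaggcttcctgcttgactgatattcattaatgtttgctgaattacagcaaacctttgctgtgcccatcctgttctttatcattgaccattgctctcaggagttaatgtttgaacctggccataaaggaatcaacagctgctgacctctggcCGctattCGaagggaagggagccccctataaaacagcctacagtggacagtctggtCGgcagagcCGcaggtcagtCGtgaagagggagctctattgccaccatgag
NANOG, chr12:7789152-7789451, plus strand: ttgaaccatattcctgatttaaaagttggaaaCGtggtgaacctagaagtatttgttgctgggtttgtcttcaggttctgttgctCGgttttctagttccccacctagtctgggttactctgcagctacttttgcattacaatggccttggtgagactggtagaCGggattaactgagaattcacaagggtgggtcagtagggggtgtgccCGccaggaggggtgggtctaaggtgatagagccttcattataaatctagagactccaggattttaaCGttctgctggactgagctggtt
The 3 windows of genes with high levels held 18 (CD44), 35 (TMSB10) and 34 (KITLG) CpG, and those of FABP1 and NANOG held 7 and 5. GC content was 63.3%, 75.3% and 69.7% in the former and 50% and 46.7% in the latter. The GC box GGGCGG, sought on both strands, occurred 2 times in CD44, 5 times in TMSB10 and 2 times in KITLG and was not found in the windows of FABP1 and NANOG, while 59.2% of the 15369 matched promoters held it. The letters TATAAA began 29 bases before the start in KITLG and 31 bases before it in FABP1, while in NANOG they began at the base just before the start. Of all matched promoters, 3.71% held these letters between 45 and 16 bases before the start on the sense strand. These genes were chosen by their levels, and matched letters are a description of the windows, not of bound factors.

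The stem cell genes of the crypt ranged from SOX9 at 53.1 FPKM to 0 reads. Of 25 listed genes, 15 were expressed, beside 55.3% of all protein-coding genes. SOX9, a transcription factor of the crypt base, had 51.7, 55.6 and 51.8 FPKM, and the aldehyde dehydrogenase ALDH1B1 17.8 ± 0.842 FPKM. The WNT target genes RNF43 (6.97 ± 0.0721 FPKM), AXIN2 (6.24 ± 0.499) and ZNRF3 (5.19 ± 0.399), which encode brakes on WNT signalling, and the R-spondin receptor LGR4 (6.77 ± 0.187) were moderate. The polycomb factor BMI1 had 9.09 ± 0.409 FPKM, the ephrin receptors EPHB3 and EPHB2 had 2.57 and 2.36 FPKM and LRIG1, a restraint on EGF receptors, 0.796 FPKM. LGR5, the best known marker of crypt base columnar cells, had reads in NC 1 only and a mean of 0.00756 FPKM. ASCL2, the transcription factor that acts with LGR5, and OLFM4 and HOPX had 0 reads in all 3 libraries, which allowed at most 0.0315, 0.0201 and 0.00752 FPKM.

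Embryonic pluripotency genes were mostly low. Of 20 listed genes, 4 were expressed (20.0%) and 6 had no read. MYC, a driver of growth in many cell types, was the highest with 44.0, 44.3 and 38.7 FPKM at rank 703. Next were the DNA methyltransferase DNMT3B (7.32 ± 0.208 FPKM), KLF4 (4.52 ± 0.554) and TFCP2L1 (3.42 ± 0.318). POU5F1, which encodes OCT4, had 0.288, 0.159 and 0.281 FPKM. SOX2 had 0, 0.0686 and 0.0231 FPKM, and NANOG had 0 reads, which allowed at most 0.0108 FPKM.

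Of 35 regulators of the intestinal lineage, 17 were expressed (48.6%, beside 55.3% of all genes), and 7 reached 5 FPKM. The zinc finger factor KLF5, active in crypt progenitors, had 20.7, 21.5 and 21.4 FPKM, and the epithelial splicing factors ESRP1 and ESRP2 had 41.8 ± 3.16 and 7.44 ± 0.884 FPKM. ID1 and ID3, inhibitors of basic helix-loop-helix factors, were higher at 142 ± 38.0 and 36.3 ± 7.56 FPKM, and both were lowest in NC 3 (98.9 and 27.6 FPKM). The caudal homeobox factor CDX2 had 2.25, 2.51 and 1.68 FPKM, whereas CDX1 had 0 reads. HNF4A had a mean of 1.04 FPKM and GATA6 1.40, and GATA4 and GATA5 had no read. ATOH1, NEUROG3 and SPDEF, which direct secretory fates, had 0.0873, 0 and 0.0911 FPKM, and the Notch target HES1, which opposes ATOH1, had 3.66 ± 1.19.

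**Figure D2:**
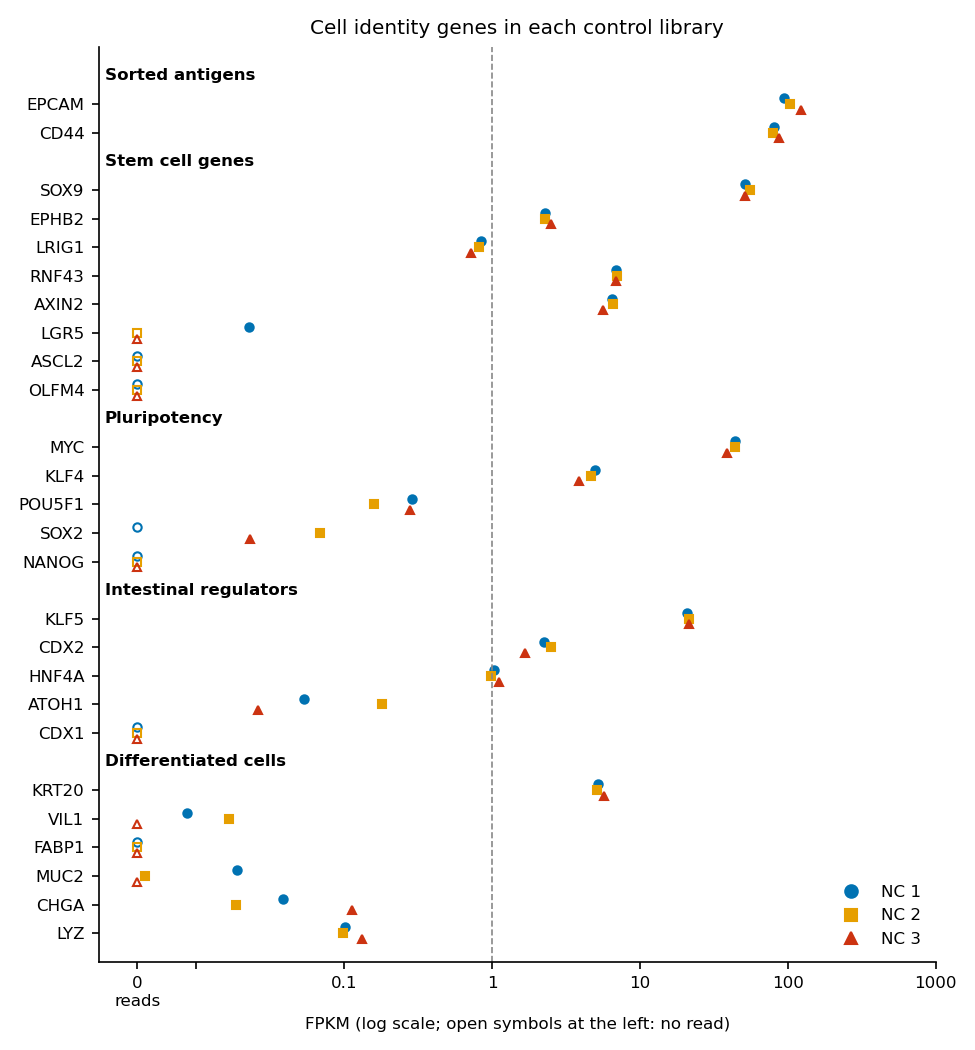
FPKM on a log scale (x axis) of the sorted antigens and of genes of stem, pluripotent, intestinal and differentiated cells, with 1 symbol per library and open symbols at the left where a library held no read. EPCAM, CD44, SOX9, MYC and KLF5 lie above 10 FPKM in every library, and LGR5, ASCL2, OLFM4, NANOG, CDX1 and FABP1 lie at or near 0 reads.

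Genes of differentiated colonic cells were mostly below 1 FPKM. Of 30 genes of absorptive cells, 4 were expressed (13.3%, beside 55.3% of all genes) and 13 had no read. The expressed ones were the peptidase DPP4 (6.41 ± 0.801 FPKM), the keratin KRT20 (5.35 ± 0.329), the carbonic anhydrase CA2 (4.80 ± 0.519) and TSPAN1 (2.97 ± 0.413). The fatty acid carrier FABP1, the disaccharidase SI and the carcinoembryonic antigens CEACAM5 and CEACAM6 had 0 reads, and villin (VIL1), a core protein of microvilli, lay at 0.0084 FPKM. Of 20 goblet cell genes, 2 were expressed, KLF4 and the mucin MUC1 (1.37 ± 0.339 FPKM). With TPM, which scales every library to the same summed level, in place of FPKM, 4 were counted. A minimum of 1 TPM admitted more genes in general, 12631 of all protein-coding genes beside 11032 at 1 FPKM. The secreted mucin MUC2 lay at 0.00778 FPKM with TFF3 at 0 reads. Of 15 enteroendocrine genes, 1 was expressed (5 with TPM), the secretogranin SCG2, with 14.3, 12.9 and 16.5 FPKM, while CHGA had 0.0564 FPKM and the hormone genes SST and GCG had no read. Of 11 Paneth and tuft cell genes, AVIL lay at the threshold with 1.05, 1.04 and 0.917 FPKM, and lysozyme (LYZ) had 0.110 FPKM. The count of expressed genes in that list was 1, and 0 without NC 1 or without NC 2.

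Simple epithelial keratins dominated the keratin genes. KRT19 had 307, 321 and 304 FPKM at rank 53, and the pair KRT8 and KRT18, which form heteropolymers, had 178 ± 3.26 and 129 ± 12.9 FPKM. KRT23, KRT10, KRT20 and KRT15 lay between 3.12 and 11.8 FPKM. The other 19 of 26 listed keratins were below 1 FPKM, among them the basal keratins KRT5 (0.127 FPKM) and KRT14 (0.136 FPKM).

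Markers of other tissues were checked in the same way. No gene of 11 endothelial (1 with TPM) or 8 pancreatic markers was expressed, and the highest endothelial one was ESAM at 0.738 FPKM. Of 22 haematopoietic markers, the kinase LYN (8.03 ± 0.791 FPKM) and the integrin ITGAX (1.17 ± 0.135) were expressed, and the defining T cell genes CD3D and CD3E had 0 reads. Of 17 fibroblast markers, 6 were expressed, led by S100A4 and by the matrix proteins SPARC (8.64 ± 0.175 FPKM) and FN1 (5.75 ± 0.453), whereas DCN, LUM, POSTN and PDGFRA had 0 reads. Of 13 hepatocyte markers CPS1 (6.63 FPKM) and SERPINA1 (2.97 FPKM) were expressed, and of 14 germ cell markers ZP3 (1.64 FPKM). Neural (5 of 14), muscle (2 of 12, or 6 with TPM) and squamous markers (2 of 12) each included a single high gene. The synaptic calcium sensor SYT1 had 23.9, 25.4 and 30.2 FPKM, while the neural genes STMN2, GAP43, NEFL and ELAVL4 had no read. The slow skeletal troponin TNNT1 had 43.7, 44.2 and 39.8 FPKM, while MYOD1 and MYH7 had no read. SFN, an epithelial 14-3-3 protein, had 116 ± 9.75 FPKM, while the squamous genes IVL, LOR and KRT1 had no read. Of 11 prostate markers, 4 were expressed, among them STEAP1 (6.54 ± 0.853 FPKM), STEAP2 (5.40 ± 0.181) and HOXB13 (3.04 ± 0.543), and KLK2, KLK3 and TMPRSS2 had 0 reads.

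PSCA itself, the gene that the study targets in its other arm, was low in these controls. It had 4, 12 and 15 reads, or 0.135, 0.391 and 0.494 FPKM, and rank 12405. Exons of JRK on the opposite strand cover 20.9% of its exon bases, and JRK had 2.80 to 3.21 FPKM. No source used here says whether reads were counted by strand. PSCA belongs to the Ly6 family of small, mostly membrane-anchored proteins. Of 23 listed members, 7 were expressed (30.4%, beside 55.3% of all genes). The highest were LY6E (61.0, 59.9 and 34.7 FPKM), the urokinase receptor PLAUR (24.7 ± 0.970) and the complement inhibitor CD59 (9.78 ± 0.239), and 6 members had no read.

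Homeobox genes of the HOX clusters, which mark position along the body axis, differed by cluster. In HOXB 8 of 10 genes were expressed (80.0%), in HOXA 5 of 11 (45.5%), in HOXC 3 of 9 (33.3%) and in HOXD 0 of 9. The share over all protein-coding genes was 55.3%. The highest were HOXA9 with 18.4, 21.2 and 17.8 FPKM and HOXB7 with 18.5, 19.4 and 19.2 FPKM, followed by HOXB9 at 11.99 ± 0.861, HOXB6 at 6.42 ± 0.715 and HOXB5 at 5.62 ± 0.637 FPKM. The highest of the HOXD cluster was HOXD8 at 0.561 FPKM. Within HOXA, genes beside HOXA9 were much lower, with HOXA7 at 0.579 and HOXA10 at 3.86 FPKM. Exons of other genes cover 62.5% of the exon bases of HOXA7 and 27.0% of those of HOXA9. They also cover 59.9% of HOXC5 and 58.1%, 74.1% and 80.5% of HOXD1, HOXD3 and HOXD4, whose low values were not read as absence. The overlap was 16.8% for HOXD10, 21.4% for HOXD11 and 0% for HOXD8, HOXD9, HOXD12 and HOXD13.

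Growth factor genes were led by a few ligands at levels far above those of the receptors. Of 67 listed ligands, 30 were expressed (44.8%, beside 55.3% of all genes), with a median of 12.9 FPKM among the expressed ones. At a minimum of 1 TPM in place of 1 FPKM, 46 ligands were counted, and 12631 of all protein-coding genes in place of 11032. KITLG, the ligand of the receptor KIT, had 290, 293 and 321 FPKM at rank 57. The EGF receptor ligands amphiregulin (AREG) and epiregulin (EREG) followed with 188 ± 8.15 and 126 ± 5.17 FPKM. Of the same group, TGFA had 14.6 ± 0.884, HBEGF 6.22 ± 0.298 and BTC 4.11 FPKM, while EGF, which was supplied in the medium, had 0.242 FPKM. BMP4, a ligand of the transforming growth factor superfamily, had 72.4 ± 4.61 FPKM, and GDF15, a stress-responsive member of that superfamily, had 78.2, 76.4 and 43.8 FPKM. FGF19 and FGF9 had 24.4 ± 2.60 and 5.54 ± 0.889 FPKM, whereas FGF2, the gene of the bFGF that was supplied, had 0.738 FPKM. Of 19 WNT ligands, 7 were expressed, and WNT16 was the highest with 22.8, 21.7 and 24.8 FPKM. The WNT antagonist DKK1 had 26.5 ± 1.02 FPKM, and the Notch ligand JAG1 37.7 ± 0.170 FPKM. HGF, the ligand of MET, lay at 0.00587 FPKM.

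Of 49 listed receptors, 34 were expressed (69.4%, beside 55.3% of all genes), with a median of 6.98 FPKM among them. The receptor of HGF, MET, was the highest with 43.1, 43.9 and 50.6 FPKM, followed by the ephrin receptor EPHA2 (37.4 ± 5.71) and by EGFR with 27.1, 25.9 and 27.8 FPKM. ERBB2 and ERBB3, the partners of EGFR, had 7.23 ± 0.584 and 6.68 ± 0.505 FPKM, and ERBB4 had 0 reads. The highest fibroblast growth factor receptor was FGFR4, with 13.2, 13.8 and 7.19 FPKM, followed by FGFR3 at 6.34, FGFR1 at 5.79 and FGFR2 at 3.48 FPKM. The cytokine receptor OSMR had 26.2 ± 1.44 and the collagen receptor DDR1 22.9 ± 4.50 FPKM. KIT, PDGFRA and NTRK2 had 0 reads, which for KIT, the receptor of KITLG, allowed at most 0.0105 FPKM.

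**Figure D3:**
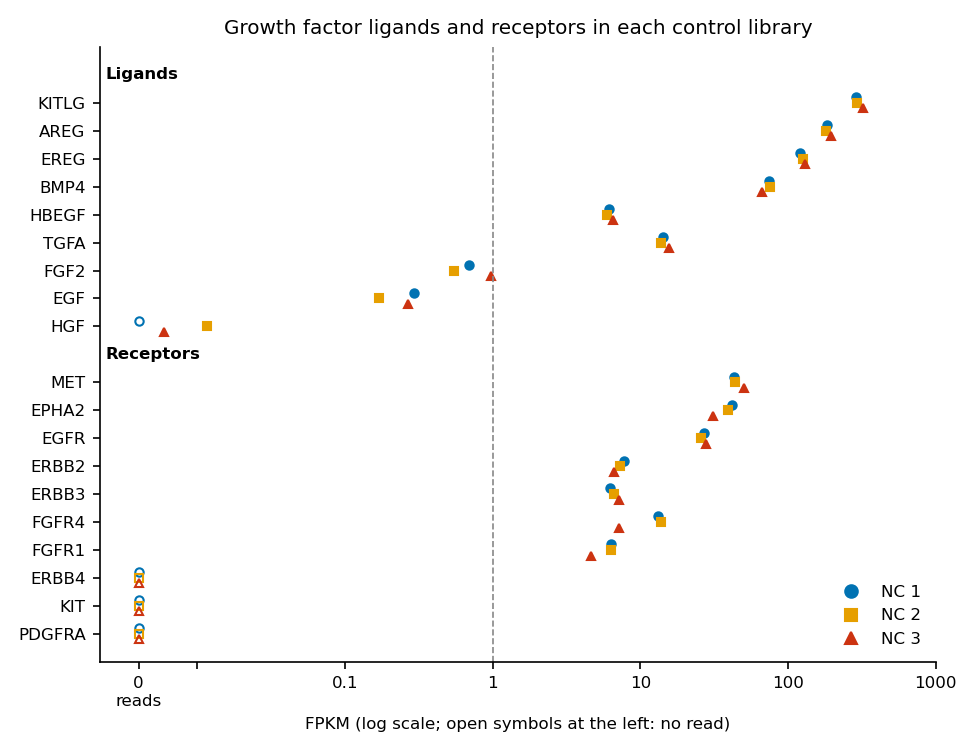
FPKM on a log scale (x axis) of growth factor ligands and receptors, with 1 symbol per library and open symbols at the left where a library held no read. KITLG, AREG and EREG lie above 100 FPKM, the highest receptor, MET, lies between 43.1 and 50.6 FPKM, and ERBB4, KIT and PDGFRA hold no read.

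All 25 listed genes of the ERK cascade and its feedback were expressed, beside 55.3% of all genes. The kinases were moderate, among them MAPK3 (ERK1) at 13.8 ± 0.803 FPKM, MAP2K2 at 17.2 ± 4.84, MAP2K1 at 15.1 ± 0.651 and BRAF at 3.39 FPKM. Genes that respond to ERK activity were higher. The immediate early gene IER3 had 300, 283 and 265 FPKM, the ERK phosphatase DUSP6 146, 153 and 157 FPKM, the phosphatase DUSP5 67.9, 68.1 and 59.1 FPKM and DUSP4 48.6 ± 2.76 FPKM. PHLDA1, EGR1, SPRY4 and FOS lay between 25.6 and 72.4 FPKM. NRAS had 39.7 ± 2.86 FPKM and HRAS 14.7 ± 1.63 FPKM.

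All 27 listed genes that are mutated in or characterise HCT116 and other mismatch repair deficient colorectal cancers were expressed. The cyclin-dependent kinase inhibitor CDKN1A had 111, 110 and 78.0 FPKM, and beta-catenin (CTNNB1) 34.6 ± 1.16 FPKM. The mismatch repair genes MSH6 and MSH3 had 8.89 and 1.36 FPKM. A level in FPKM says nothing about whether a transcript encodes an intact protein.

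Cell cycle genes were broadly expressed, 34 of 36 (94.4%, beside 55.3% of all genes). The replication clamp PCNA had 127 ± 5.89 FPKM, the proliferation marker MKI67 44.9 ± 4.95 and the topoisomerase TOP2A 38.4 FPKM. Among D cyclins CCND1 had 101, 102 and 102 FPKM and CCND3 3.93 FPKM, while CCND2 lay at 0.00277 FPKM. Of 32 apoptosis genes, 28 were expressed (87.5%). The anti-apoptotic MCL1 had 64.4 ± 2.31 and BCL2L1 20.9 ± 3.45 FPKM, whereas BCL2 lay at 0.140 FPKM. The effector BAX had 15.1, 14.9 and 8.35 FPKM. The death receptor TNFRSF10B had 57.5 ± 3.46 FPKM.

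Adhesion genes were expressed in shares near or below the 55.3% of all genes for integrins, cadherins and tight junctions, and above it for laminins and desmosomes. Of 26 integrin subunits, 13 were expressed, led by ITGB1 (131 ± 11.7 FPKM) and by ITGB4 (106 ± 7.21), the partner of ITGA6 in hemidesmosomes. ITGA2 and ITGA3, which pair with ITGB1, had 31.8 ± 2.19 and 30.2 ± 2.37 FPKM, and the leukocyte subunits ITGB2 and ITGAL had 0.0229 and 0.0211 FPKM. Of 12 laminin chains, 9 were expressed, led by LAMB3 (28.6 ± 2.14), LAMA5 (34.5, 29.6 and 14.5) and LAMB2 (26.0 ± 3.50 FPKM). Of 15 desmosome genes, 10 were expressed, with the cadherin DSG2 at 91.2 ± 6.10, PERP at 68.9 ± 7.46 and the plaque protein DSP at 52.4 ± 7.25 FPKM.

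Of 37 genes of cadherins, catenins, nectins and afadin, 14 were expressed and 13 had no read. E-cadherin (CDH1) had 28.0, 30.1 and 32.1 FPKM and P-cadherin (CDH3) 36.0, 37.0 and 36.3 FPKM. P-cadherin was higher than E-cadherin in each library. N-cadherin (CDH2) lay at 0.0116 FPKM, and VE-cadherin (CDH5) had 0 reads. The catenins CTNNA1, JUP and CTNND1, which belong to cadherin complexes, had 75.9 ± 3.35, 64.1 ± 2.93 and 33.8 ± 2.69 FPKM. Of 31 tight junction genes, 15 were expressed, among them the claudins CLDN4 (41.1, 39.7 and 24.5 FPKM), CLDN7 (23.0, 22.3 and 16.5) and CLDN3 (20.1, 18.5 and 6.97), while CLDN1 lay at 0.0370 FPKM. All 3 of these claudins were lowest in NC 3. Of 19 genes of epithelial to mesenchymal transition, 8 were expressed (42.1%, beside 55.3% of all genes). Vimentin (VIM) had 3.62 ± 0.263 FPKM, the repressors SNAI1 and ZEB1 had 4.54 ± 0.629 and 0.911 ± 0.0879 FPKM, ZEB2 lay at 0.00311 FPKM and TGFBI had 0 reads.

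In some families of carbohydrate metabolism 1 member held nearly all of the summed FPKM, and in others the level was divided among members. The highest member held 95.2% in lactate dehydrogenase and 90.7% in enolase. It held 62.7% in the PFKFB family (PFKFB4), 64.5% in glycogen phosphorylase (PYGL) and 56.5% in the monocarboxylate transporters (SLC16A1). LDHA, which favours lactate formation, had 346 FPKM against 15.9 for LDHB, a ratio of 21.9 ± 0.526 over the 3 libraries. Pyruvate kinase was almost wholly PKM (370 ± 40.6 FPKM), with PKLR at 0.0248 FPKM. PGK1 had 215 ± 1.77 FPKM and the testis form PGK2 0 reads. ENO1 exceeded ENO2, the enolase best known from neurons, by 10.3 ± 0.834 times, with 652 and 63.9 FPKM. Hexokinase was divided between HK2 (46.7 FPKM) and HK1 (25.2 FPKM), a ratio of 1.87 ± 0.161, and the platelet phosphofructokinase PFKP exceeded the liver form PFKL by 2.74 ± 0.525 times. The glucose transporter SLC2A1 had 75.9 FPKM, 4.06 ± 0.810 times the level of SLC2A3, and 2 of 14 members of that family had no read. The brain creatine kinase CKB had 114, 117 and 81.7 FPKM, and the next member, CKMT1B, 0.703 FPKM. CKMT1B has a near-identical copy, CKMT1A, and reads could be divided between them.

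**Figure D4:**
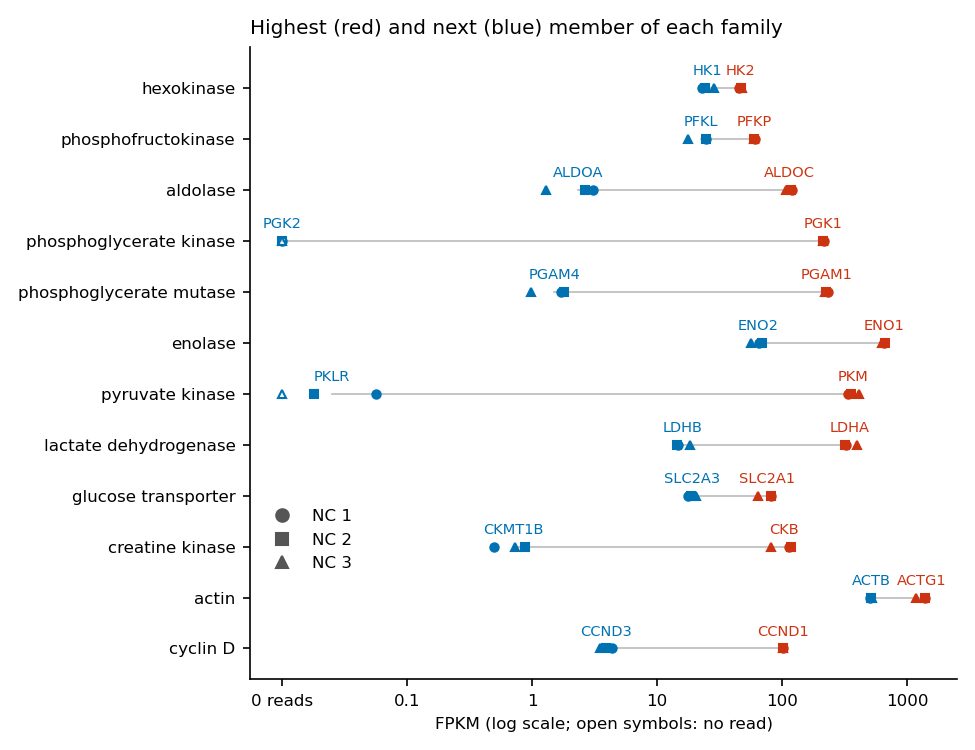
FPKM on a log scale (x axis) of the highest member (red) and the next member (blue) of 12 families, with 1 symbol shape per library and open symbols where a library held no read. HK2 and HK1 lie close together (46.7 and 25.2 FPKM), and PKM and PKLR lie far apart (370 and 0.0248 FPKM).

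The aldolases were read with more caution. ALDOC had 115 FPKM and ALDOA, the form usual in dividing cells, 3.07, 2.67 and 1.29 FPKM, a ratio of 55.6 ± 24.2. A second annotated gene covers 42.3% of the exon bases of ALDOA on the same strand, itself with 0.225 FPKM, and how reads lying in both genes were counted is not given in the sources used here. Several genes that every cell uses also overlapped others. MIF had 0.614 FPKM with 61.9% of its exon bases inside other genes, and RPS10 had 1.71 FPKM with 39.4%. Of the 525 protein-coding genes with at least 90% of their exon bases inside another gene, 77.0% had 0 reads and 0.190% were expressed. Of the 11097 genes without any overlap, 22.1% had 0 reads and 51.4% were expressed. Levels did not fall steadily with overlap. Of the 7721 genes with some overlap but under 50%, 7.51% had 0 reads and 67.4% were expressed. Of the 608 genes with 50% to 90%, 21.1% had 0 reads and 20.6% were expressed. A level of 0 or near 0 in a gene with overlapping exons, CD68 (85.8% of its bases) among them, was not read as absence. The overlap was 0% for CDX1, ASCL2, TFF3 and TGFBI.

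Of 30 genes of pyruvate oxidation and the citric acid cycle, 29 were expressed, beside 55.3% of all genes, and 22 of them reached 10 FPKM. PDP1, the phosphatase that activates pyruvate dehydrogenase, had 195, 194 and 213 FPKM at rank 97, well above the next gene of the list, MDH2 (44.7 ± 5.20 FPKM). Its opponents, the kinases PDK3, PDK1, PDK2 and PDK4, had 6.43, 6.35, 3.32 and 0.842 FPKM. IDH1, the cytosolic isocitrate dehydrogenase, had 41.6 ± 3.78 FPKM, 2.69 ± 0.342 times the mitochondrial IDH2.

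Lipid synthesis genes were high. Of 30 lipid genes, 29 were expressed (96.7%, beside 55.3% of all genes) and 24 reached 10 FPKM. Behind SCD came fatty acid synthase (FASN, 148, 142 and 93.2 FPKM) and the citrate lyase ACLY (99.6 ± 3.44 FPKM), and the sterol pathway genes HMGCS1, FDFT1 and IDI1 lay between 44.5 and 69.3 FPKM. Of 27 amino acid genes, 25 were expressed (92.6%). They were led by the neutral amino acid transporter SLC38A2 (203, 198 and 198 FPKM) and by ornithine decarboxylase (ODC1, 104 ± 4.22). PSAT1 of serine synthesis had 48.9 ± 0.659 FPKM, PHGDH, the enzyme before it, 8.74 ± 0.748 FPKM, and asparagine synthetase (ASNS) 2.18 FPKM. Of 9 pentose phosphate genes, 8 were expressed, with PGD at 84.5 ± 8.94 FPKM.

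Of 20 genes of oxygen sensing and the hypoxia response, 18 were expressed. NDRG1 had 219, 228 and 232 FPKM, the collagen prolyl hydroxylase P4HA1 129, 131 and 149, HIF1A 65.1 ± 3.75 and VEGFA 10.7 ± 1.01, whereas the carbonic anhydrase CA9, a common hypoxia marker, had 3.01 FPKM. Of 27 genes of immune recognition, 15 were expressed (55.6%, beside 55.3% of all genes). The class I chains HLA-C and HLA-B had 126 ± 14.3 and 73.7 ± 2.60 FPKM and their partner B2M 79.5 ± 7.32, whereas the class II activator CIITA had 0.131 FPKM and TNF 0.0463 FPKM. The class I genes are highly polymorphic and similar to one another, and reads could be divided among them. Interleukin 18 (IL18) had 21.5 ± 0.744 FPKM.

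Several families with tissue-restricted use held many genes without reads, beside 17.9% of all protein-coding genes. Of 386 olfactory receptors, 332 had 0 reads and 7 were expressed (1.81%). Of 94 keratin-associated proteins, which belong to hair, 78 had no read and 1 was expressed, and of 39 beta-defensins 36 had no read. Of 24 GAGE, PAGE and XAGE genes of the testis, none was expressed. Of 53 clustered protocadherins, which serve contacts between neurons, 2 were expressed, at 1.57 FPKM or less, and many of their exons overlap one another. The share of genes with 0 reads was 40.3% on chromosome 21 and 33.0% on X, and 9.50% on 22. At the other end, 77 of 78 mitochondrial ribosomal proteins and 81 of 86 genes named as cytosolic ribosomal proteins were expressed.

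The MAGE genes, most of which are silent outside testis and tumors, had 7 of 34 members expressed (20.6%, beside 55.3% of all genes). MAGEB2 had 103, 105 and 96.7 FPKM and MAGEA3 38.1, 39.8 and 33.7 FPKM, and 18 of the MAGE genes had no read. MAGEA3 has close copies on the X chromosome among which reads could be divided.

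NC 3 stood apart from the other libraries. Over the expressed genes, Pearson's correlation of log2(FPKM + 1) across genes, which are not independent replicates, was 0.996 between NC 1 and NC 2, 0.976 between NC 1 and NC 3 and 0.981 between NC 2 and NC 3. NC 1 and NC 2 lay within 1.1-fold of each other in 73.6% of expressed genes, and NC 1 and NC 3 in 35.6%. Differences beyond 1.5-fold numbered 87 genes between NC 1 and NC 2, 1304 between NC 1 and NC 3 and 1143 between NC 2 and NC 3. The chi-square of the reads per degree of freedom was 2.53 between NC 1 and NC 2, above the value near 1 that read counting alone gives, and 28.9 and 23.0 for the pairs with NC 3. It is given as a description against counting error only and does not show whether the libraries came from separate cultures.

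The median coefficient of variation (CV, the SD as a percentage of the mean) was 8.85% over the expressed genes, and 3.77% between NC 1 and NC 2 alone. It was 7.39% over the 4259 genes with at least 10 FPKM. The steadiest of those was OSBPL8, a lipid transfer protein, with 34.6, 34.7 and 34.6 FPKM and a CV of 0.0716%, and the 10 steadiest, RAN (105 ± 0.325 FPKM) and ACTN4 (81.4 ± 0.269) among them, had a CV of at most 0.363%. With 3 libraries the lowest of so many CVs are small by selection, so these genes are named as measured and not as standards. All 20 listed reference genes were expressed. Of these, PGK1 (215 ± 1.77 FPKM), ACTB (516 ± 10.9) and EEF1A1 had small SDs, GAPDH had a CV of 4.58%, and B2M had 73.5, 77.2 and 87.6 FPKM.

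The 10 most variable genes of at least 10 FPKM had a CV between 49.5% and 63.6%, and all were lowest in NC 3. SLC22A31 had 15.8, 13.9 and 2.96 FPKM, the transcription factor HES4 16.8, 15.6 and 3.32 FPKM, and the ferritin heavy chain FTH1 105, 84.3 and 22.8 FPKM. Exons of BEST1 on the opposite strand cover 62.4% of the exon bases of FTH1, so its level carries the same caution as those of other overlapping genes. TSPO, HES6, CTXN1, KIFC2, NME3, H1FX and SLC52A2 had 0.302, 0.298, 0.331, 0.317, 0.314, 0.338 and 0.338 times the level of the other two libraries in NC 3. Of the 88 such genes with a CV over 30%, NC 3 was the lowest in 85.

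This spread moved with the base composition of the transcripts. Relative to the mean of the other libraries, NC 3 deviated with a Spearman correlation of -0.670 to the GC content of the principal transcript across 11028 expressed genes, which share their libraries. The median ratio of NC 3 to the other libraries was 1.09 in transcripts under 40% GC, 0.983 between 50% and 55%, 0.701 between 60% and 65% and 0.557 at 65% and over. The ratio of NC 1 to NC 2 went from 0.983 under 40% GC to 1.05 at 65% and over. The median CV was 7.09% in the lowest of these classes and 30.7% in the highest. FASN (65.3% GC), LAMA5 (66.4%) and CLDN3 (69.2%) were among the GC-rich genes that were lowest in NC 3. Not every gene lay on this trend. FTH1, whose exons overlap those of BEST1, had 50.1% GC and 0.241 times the level of the other libraries in NC 3. MT-CO2 had 46.2% GC and 0.715 times. The part of RNA quality or library preparation in this was not tested.

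**Figure D5:**
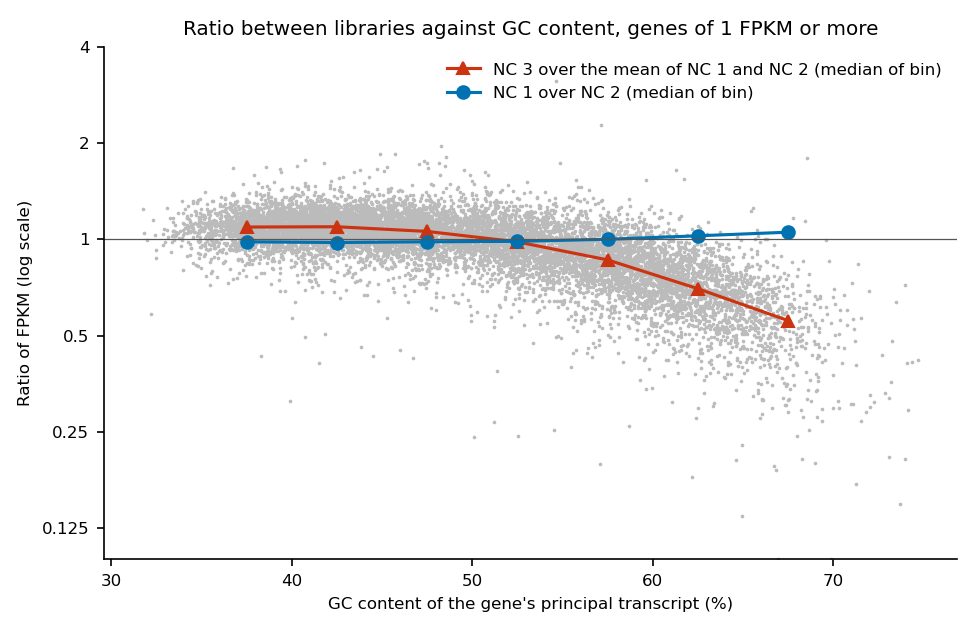
Ratio of FPKM between libraries (y axis, log scale) against GC content (x axis, percent) for expressed genes, with grey points for NC 3 over the mean of NC 1 and NC 2 in single genes and lines for medians of GC classes (the first class is under 40%, the last 65% and over). The median for NC 3 (red) goes from 1.09 to 0.557, and that of NC 1 over NC 2 (blue) lies between 0.978 and 1.05.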

How the data were processed

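Per the labels, RNA of sorted HCT116SCs was sequenced 48 h after siRNA transfection. What the authors deposited is a single table of FPKM on GRCh38 (submitters' processing notes). Its gene lengths equal the exon unions of GENCODE 29 in 100% of the genes. The aligner and counter are not given in the sources used here, nor is strand use. Only the 3 NC columns were read. The 3 siPSCA columns were not read. Dividing each FPKM by its step per read gave whole reads for 100% of values (tolerance 0.05), which supplied depths and floors (3 reads over the 3 libraries). Levels are arithmetic means of FPKM with SD, and CVs use no pseudocount. No test was run.

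The members and gene lists were chosen with earlier results of these data known. Genes named were the 20 highest, up to 6 highest members and marked key members of each list, the highest and next member of each enzyme family, the 10 highest and 10 lowest CVs among genes of at least 10 FPKM, and the proteins the study measured. Members of families defined by symbol, and other genes outside this rule, were chosen after their values were seen. Of 17 duplicated symbols the higher row was used, and 27 symbols had been turned into dates. RefSeq promoter windows matched 15369 genes (77.0%), under 80%, so a comparison of promoters between expression classes was void. Scripts were tested on simulated data. Alternatives were the minimum, unit, scaling, summary and libraries used. Gene length and exon overlap were added after seeing the data. Software was Python 3.11.15, pandas 2.3.3, numpy 2.4.6, scipy 1.17.1 and matplotlib 3.10.9. Some listed genes are not reported here.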

Additional observations from a re-analysis of the deposited data

How the results depend on the processing

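Counts and ranks moved little across most alternatives. The number of expressed genes was 6974 with a minimum of 5 FPKM, and lay between 10667 and 12631 under the other settings that kept all libraries. It was 10988 to 11071 when a library was left out. Genes with 0 reads numbered 6151 when defined as a mean FPKM under 0.1, and 3853 to 3896 when a library was left out. The share of the 100 highest genes was 21.4% without the mitochondrial genes, 21.1% of recovered reads, and 40.4% to 42.1% when a library was left out. The rank of EPCAM was 254 with the length of the APPRIS principal transcript, an alternative added after seeing the data, and 189 to 222 when a library was left out, while that of CD44 was 269 to 286. Leaving out a library gave 461 to 468 expressed members over all gene lists, beside 466. The median CV was 12.95% with no minimum FPKM, and 3.77% to 9.73% when a library was left out, the lowest being without NC 3. The median SD of log2(FPKM + 1) was 0.106, and 0.0469 to 0.120 when a library was left out, again lowest without NC 3. The cause of these shifts was not tested. With a minimum of 5 FPKM, the counts of 15 of 39 gene lists moved by more than 1.5 times, with TPM 7, with the APPRIS length 4, with a minimum of 0.5 FPKM 2, and with quantile normalisation 0. Leaving out NC 1 or NC 2 moved 1 list, that of Paneth and tuft cells, from 1 expressed gene to 0. No paired analysis was possible because the results come from no test and a single group was used.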

Other observations

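Of the 7 expressed olfactory receptor genes, 6 lay in 1 stretch of chromosome 11 (GRCh38, 5301014 to 5505652), in a block that held 51 of the 386 annotated olfactory receptors. OR51B4 had 17.7, 17.9 and 15.5 FPKM, a mean of 17.0 ± 1.35 (SD, n = 3), and OR51B5 and OR51B2 had 8.04 and 6.08 FPKM. No exon of another gene overlaps OR51B4 or OR51B2, but the whole stretch lies inside the annotated span of HBE1 (minus strand, 5268345 to 5505652). Whether the reads came from the receptor genes or from a longer transcript across the stretch was not tested. SSX genes, which like MAGE genes are mostly restricted to testis and tumors, had 1 of 9 members expressed, at 14.5 FPKM. Of 22 UGT genes, which encode glucuronosyltransferases, 20 had 0 reads and 1 was expressed at 5.62 FPKM, although UGT1A genes share exons. SOX4, a factor of progenitor cells, was the highest of 19 SOX genes at 85.2 FPKM. These genes were chosen after their values were seen.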
